A study of Homo sapiens with 5 samples.

Results

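The 10 genes EGR1, IER2, IER3, IER5, KLF4, KLF6, KLF10, MYC, NR4A1 and ZFP36 are immediate early response genes that do not encode subunits of the transcription factor AP-1. They were taken by symbol from the 23459 genes of the deposited count table, and each symbol matched 1 Entrez row. To analyse the impact of raised JUN, 3′ mRNA sequencing compared MCF10A SAM cells carrying the guide sgJUN#1 (2 libraries) with SAM cells given a non-targeting guide as control (NTC, 3 libraries). The MCF10A line consists of human breast epithelial cells that grow indefinitely without being tumorigenic. Cells of both groups carried the activator constructs dCas9-VP64 and MCP-p65-HSF1, which sgJUN#1 directs to the JUN promoter. SAM cells were picked as single clones, and whether both groups stem from the same clone is not stated in the sources used here. Both groups were grown in medium with horse serum, insulin, hydrocortisone, cholera toxin and EGF. The study calls the replicates of this comparison biological. Its figure legend gives n = 2, whereas its RNA sequencing methods name 3 biological replicates per condition. The labels hold 3 NTC and 2 sgJUN#1 libraries and do not say which libraries came from separate cultures. P-values measure the spread between these libraries. Of the 10 genes, 9 passed the filter on low counts and were tested, and NR4A1 did not pass it.

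Immediate early genes are transcribed within minutes of a growth factor, serum or stress signal, without new protein synthesis. In many of them, serum response factor (SRF) and its partners bind a CArG box near the start site, and CREB-like factors bind cyclic AMP response elements. Their mRNAs are often short-lived, because AU-rich elements in the message recruit decay factors such as ZFP36. In mammary epithelial cells, EGF in the medium acts through the ERK kinases, which feed into this programme, and JUN itself is a classical member of it.

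JUN was examined first, since it was the targeted gene. It stood at 25.03, 36.2 and 9.32 CPM (counts-per-million on TMM-scaled library sizes) in NTC replicates 1 to 3 and at 171.5 and 265.5 CPM in sgJUN#1 replicates 1 and 2. Both sgJUN#1 libraries lay above every NTC library. The log2 fold change was 3.25 (SE 0.484), with an adjusted p of 0.0733 by edgeR's quasi-likelihood test. It passed the threshold with DESeq2 and limma-voom and in the edgeR fits without NTC replicate 2 (3.68) or without NTC replicate 3 (2.84). JUN also passed when the replicate number was added to the edgeR fit as a block (2.82). It did not pass with median-ratio scaling, with library size alone, with no filter or without NTC replicate 1. The 2 fits that kept a single sgJUN#1 library are given by size only. Their values for JUN were 3.53 without sgJUN#1 replicate 1 and 2.9 without sgJUN#1 replicate 2. Library totals ran from 2455627 to 4988062 counts, and the 10 genes together held from 2688 to 6012 counts per library. The limit that a count of 0 allows, 3 counts, lay between 0.619 and 1.22 CPM. The 11 epithelial markers summed to 885.7, 1095 and 1317 CPM in NTC and 1985 and 806.1 CPM in sgJUN#1, with KRT19 listed at 0 in all 5 libraries. Of the 10 tested, 6 were higher and 4 lower on average, and EPCAM had the largest difference. EPCAM held 23.7, 7.33 and 23.3 CPM in NTC and 143.9 and 56.5 CPM in sgJUN#1 (log2 fold change 2.44, SE 0.514, adjusted p = 0.210 by edgeR's quasi-likelihood test). KRT17 (1.80) and KRT14 (-1.16, at most 3.26 CPM) had the next largest differences. Among fibroblast markers, COL1A1, COL1A2 and COL3A1 stood at 2.27 CPM or less, whereas PDGFRA (148.8 to 207.8 CPM) and DCN (22.8 to 87.8 CPM) were detected. The 5 leukocyte markers summed to between 2.44 and 26.8 CPM, mostly CD14 (-1.12), and the 3 endothelial markers to between 7.51 and 10.99 CPM, mostly VWF (-0.0034). The part of these markers in the results was not tested.

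Across the 9 tested genes, no gene passed the threshold of an adjusted p under 0.05 (edgeR quasi-likelihood test, Benjamini-Hochberg over 13616 genes). Over all tested genes 28 passed, which is 0.206%. That number was 10 without NTC replicate 1, 56 without NTC replicate 2 and 57 without NTC replicate 3. At an unadjusted p under 0.05, EGR1 (higher) and ZFP36 (lower) were counted, 2 of 9, beside 8.38% of all tested genes. This count depended on the setting. It was 1 with limma-voom and 4 without NTC replicate 2. With the replicate block, without NTC replicate 1 or without NTC replicate 3 it was 0. DESeq2 and limma-voom also called none of the 9. On the log2 scale 6 genes were higher and 3 lower on average in sgJUN#1. Their median log2 fold change was 0.24, beside -0.0082 over all tested genes. In 8 of 9 genes the difference between the group means of log2 CPM was smaller than the range among the 3 NTC libraries, which held for 82.0% of all tested genes. The exception was IER5, where the difference of 0.387 was just above the NTC range of 0.386. These are bulk samples, so fewer cells with a transcript and less of it per cell cannot be told apart.

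**Figure D1:**
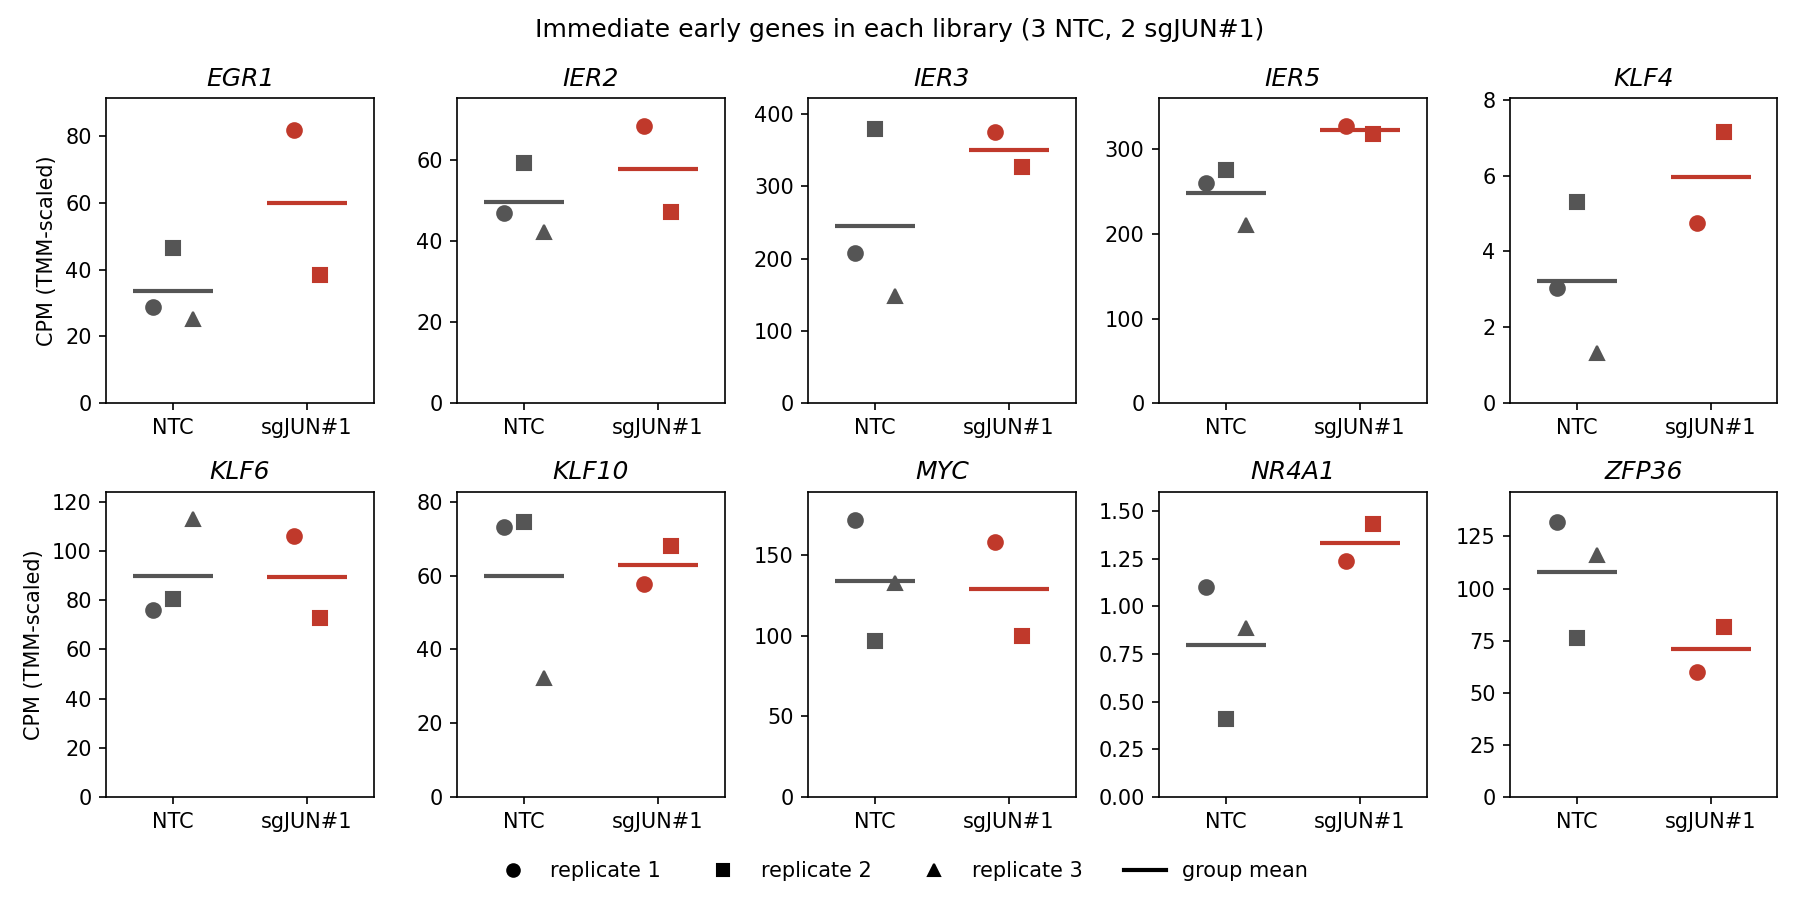
Each panel plots 1 gene, with TMM-scaled CPM on the vertical axis from 0, NTC libraries in grey, sgJUN#1 libraries in red, a marker shape for each replicate number and a line at the group mean. Only for IER5 and the nearly undetected NR4A1 do both sgJUN#1 libraries lie above all 3 NTC libraries; NTC replicate 2 reaches 379.3 CPM for IER3, above both sgJUN#1 libraries.

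EGR1 encodes a zinc finger transcription factor that binds a GC-rich site and is a textbook target of SRF and its ERK-responsive partners. The gene lies on GRCh37 chromosome 5, 137801168 to 137804992. Promoter windows of 4 of the genes are shown because EGR1 and ZFP36 had the lowest unadjusted p-values, IER5 was the tested gene without overlap between groups, and KLF6 had a difference near 0. The sequences are from RefSeq on GRCh38.p14, 250 bases before to 50 bases after the annotated start, 5′ to 3′ on the strand of the gene, with CArG boxes and EGR sites in capitals.
EGR1 (chr5:138465229-138465528, plus strand): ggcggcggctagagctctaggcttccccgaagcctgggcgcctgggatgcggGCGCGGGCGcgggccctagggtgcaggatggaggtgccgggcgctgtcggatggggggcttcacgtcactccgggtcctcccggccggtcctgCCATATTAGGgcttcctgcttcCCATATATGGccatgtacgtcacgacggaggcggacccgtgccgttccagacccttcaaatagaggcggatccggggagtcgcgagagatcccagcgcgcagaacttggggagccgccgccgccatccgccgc
IER5 (chr1:181088450-181088749, plus strand): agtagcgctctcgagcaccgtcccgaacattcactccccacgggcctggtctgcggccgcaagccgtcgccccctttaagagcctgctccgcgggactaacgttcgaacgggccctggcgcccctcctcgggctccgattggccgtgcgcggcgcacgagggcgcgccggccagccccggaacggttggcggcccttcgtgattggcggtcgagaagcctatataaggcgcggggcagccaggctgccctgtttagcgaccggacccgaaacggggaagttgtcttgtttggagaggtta
KLF6 (chr10:3785160-3785459, minus strand): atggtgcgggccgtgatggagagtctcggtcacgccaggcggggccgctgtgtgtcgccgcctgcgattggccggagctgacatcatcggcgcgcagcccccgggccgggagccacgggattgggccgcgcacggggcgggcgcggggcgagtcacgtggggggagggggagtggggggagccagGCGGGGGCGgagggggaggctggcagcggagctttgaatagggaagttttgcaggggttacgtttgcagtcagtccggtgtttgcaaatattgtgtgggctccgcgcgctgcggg
ZFP36 (chr19:39406597-39406896, plus strand): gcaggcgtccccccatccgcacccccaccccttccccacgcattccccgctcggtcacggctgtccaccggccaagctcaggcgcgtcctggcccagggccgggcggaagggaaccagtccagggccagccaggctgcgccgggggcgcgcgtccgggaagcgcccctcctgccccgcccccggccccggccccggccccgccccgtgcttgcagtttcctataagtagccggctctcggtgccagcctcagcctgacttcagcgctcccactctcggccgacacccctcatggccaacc

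Promoter windows were found for 7 of the 10 genes, NR4A1 with 2, and both strands of these 8 windows were searched. The EGR1 window held CArG boxes with first bases at -105 and -83 relative to the start site, and an EGR site (GCGNGGGCG) at -198. None of the other 7 windows held a CArG box, which occurred in 1.29% of 35116 promoters of the same length. An EGR site was also found in KLF4 (-189) and KLF6 (-65), so in 3 of 8 windows, beside 9.43% of all promoters. The AP-1 site TGANTCA was in none of the 8 windows (7.71% of all promoters) and neither was the cyclic AMP response element TGACGTCA (1.85%). The shorter motif TGACG, which the full element contains, was found in EGR1 (-135 and -66), KLF4 (-247 and -210) and IER2 (-140), 3 of 8 windows beside 24.6% of all promoters. A match describes letters in the window, and its absence says nothing about binding of a factor there or elsewhere.

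EGR1 stood at 28.9, 46.4 and 25.1 CPM in NTC replicates 1 to 3, from 105, 114 and 113 counts. In sgJUN#1 it stood at 81.7 and 38.3 CPM, from 396 and 107 counts. Replicate 1 of sgJUN#1 was above every other library, whereas replicate 2 was below NTC replicate 2, so the groups overlapped. The means were 33.5 ± 11.4 CPM (SD, n = 3) and 60.0 ± 30.7 CPM (SD, n = 2). The estimated log2 fold change was 0.87 (SE 0.358, 95% interval 0.062 to 1.68), with an unadjusted p of 0.0376 and an adjusted p of 0.556 by edgeR's quasi-likelihood test. An exact two-sided permutation test over the libraries gave p = 0.3, where 0.1 is the smallest that 3 against 2 libraries allow. A single library decided the size, since the log2 fold change was 0.21 without sgJUN#1 replicate 1, 1.31 without sgJUN#1 replicate 2 and 1.17 without NTC replicate 2. The 95% counting intervals of 73.9 to 90.2 CPM and 31.4 to 46.3 CPM for the sgJUN#1 libraries did not meet, so their gap exceeded counting error.

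The other EGR genes were close to undetected. EGR2 had no count in any library. EGR3 had at most 3 counts and EGR4 at most 4, and neither passed the filter or was called when no filter was applied. NAB1 and NAB2 encode corepressors that bind EGR1. NAB1 had a log2 fold change of 0.35 (SE 0.197) and NAB2 of -0.14 (SE 0.248), with adjusted p-values of 0.694 and 0.923 by edgeR's quasi-likelihood test. Both NAB1 values in sgJUN#1, 63.4 and 64.4 CPM, lay above the 45.1 to 54.1 CPM in NTC. Of all tested genes, 12.2% were higher without overlap.

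IER2 and IER5 encode related proteins, whereas IER3 shares only the name. IER2 is a small nuclear protein whose gene growth factors induce. Its locus is on GRCh37 chromosome 19, 13261225 to 13265725. Its NTC libraries held 47.0, 59.4 and 42.4 CPM and its sgJUN#1 libraries 68.5 and 47.2 CPM. As for EGR1, sgJUN#1 replicate 1 was the highest library, and sgJUN#1 replicate 2 lay within the NTC values. The fitted log2 fold change was 0.24 (SE 0.244, 95% interval -0.31 to 0.78), with an adjusted p of 0.842 by edgeR's quasi-likelihood test. It was -0.065 without sgJUN#1 replicate 1, 0.48 without sgJUN#1 replicate 2 and 0.38 without NTC replicate 2. The exact two-sided permutation p was 0.5.

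IER3, also called IEX-1, is induced by NF-κB and stress signals and modulates cell survival. It lies on GRCh37 chromosome 6, 30710976 to 30712325. In NTC it held 207.1, 379.3 and 148.2 CPM, from 753, 932 and 668 counts. The sgJUN#1 libraries held 374.8 and 326.3 CPM, from 1816 and 912 counts. NTC replicate 2 was the highest of all 5 libraries, while the other NTC libraries lay below both sgJUN#1 libraries. The highest NTC library exceeded the lowest by 2.56 times, beside 1.15 times between the sgJUN#1 libraries. The means were 244.9 ± 120.1 CPM (SD, n = 3) and 350.6 ± 34.3 CPM (SD, n = 2). The log2 fold change was 0.52 (SE 0.346, 95% interval -0.26 to 1.31), with an adjusted p of 0.744 by edgeR's quasi-likelihood test and an exact two-sided permutation p of 0.4. Leaving out NTC replicate 2 raised it to 0.98 (SE 0.264), and the adjusted p of 0.235 by edgeR's quasi-likelihood test was the lowest for any of the 9 genes under the alternatives run. It was 0.26 without NTC replicate 3.

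IER5 encodes a nuclear protein that acts on the phosphorylation of the heat shock factor HSF1 and is itself induced by heat. On GRCh37 it spans chromosome 1, 181057836 to 181062036. The NTC libraries held 259.6, 275.1 and 210.5 CPM, from 944, 676 and 949 counts. The sgJUN#1 libraries held 328.0 and 318.1 CPM, from 1589 and 889 counts. Both sgJUN#1 libraries were above all NTC libraries, which made IER5 the only 1 of 9 tested genes without overlap in this direction. Over all tested genes 12.2% were higher without overlap and 12.8% lower, and none of the 9 was lower without overlap. The means were 248.4 ± 33.8 CPM (SD, n = 3) and 323.0 ± 6.99 CPM (SD, n = 2), and the ratio of means was 1.30. Its log2 fold change was 0.38 (SE 0.196, 95% interval -0.060 to 0.82), with an adjusted p of 0.664 by edgeR's quasi-likelihood test. The exact two-sided permutation p was 0.1, the smallest possible here. Leaving out single libraries gave log2 fold changes between 0.27 and 0.46, the narrowest such range among the 9 genes.

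IER5L, which encodes a protein related to IER5, had 13.2, 7.73 and 6.65 CPM in NTC and 9.91 and 9.30 CPM in sgJUN#1. Its log2 fold change was 0.065 (SE 0.366), with an adjusted p of 0.978 by edgeR's quasi-likelihood test. Of 9 heat shock response genes, 7 were higher and 2 (HSPA1B and HSPB1) lower on average in sgJUN#1, and the list had a median log2 fold change of 0.15. None passed the threshold with edgeR, DESeq2 or limma-voom, and DNAJB1 was counted at an unadjusted p under 0.05. Their summed level was 5032, 5094 and 2575 CPM in NTC and 5378 and 4401 CPM in sgJUN#1. NTC replicate 3 was the lowest NTC library in all 9 heat shock genes, beside 35.3% of all tested genes. It was also the lowest for 6 of the 9 tested immediate early genes, IER5 among them. Without it, 4 heat shock genes were higher and 5 lower, and the median log2 fold change was -0.064. The heat shock genes with the largest absolute values were DNAJB1 (0.53), DNAJA1 (0.49) and HSPA8 (0.43), which encode 2 co-chaperones and the constitutive HSP70 chaperone. HSPA1A and HSPA1B are near-identical copies, so their reads may be placed in either.

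KLF4, KLF6 and KLF10 encode Krüppel-like zinc finger factors that bind GC-rich or CACCC sequences. KLF4 promotes epithelial differentiation. It lies on GRCh37 chromosome 9, 110247133 to 110252763. Levels in NTC were 3.03, 5.29 and 1.33 CPM, from 11, 13 and 6 counts, and in sgJUN#1 they were 4.75 and 7.16 CPM, from 23 and 20 counts. NTC replicate 2 lay between the sgJUN#1 libraries. The fitted log2 fold change was 0.95 (SE 0.545, 95% interval -0.27 to 2.18), with an adjusted p of 0.697 by edgeR's quasi-likelihood test and an exact two-sided permutation p of 0.3. It was 0.52 without NTC replicate 3 and 1.44 without NTC replicate 2. With 6 to 23 counts per library the counting intervals were wide, from 0.488 to 2.90 CPM in NTC replicate 3 for example, and the range among NTC libraries was 1.64 on the log2 scale.

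KLF6 is broadly expressed and induced by growth and injury signals. Its locus is on GRCh37 chromosome 10, 3818188 to 3827473. The NTC libraries held 75.9, 80.6 and 112.9 CPM and the sgJUN#1 libraries 106.3 and 72.6 CPM. The sgJUN#1 libraries lay on both sides of NTC replicates 1 and 2, 1 of them below every NTC library, and the groups overlapped. The log2 fold change was -0.0037 (SE 0.252, 95% interval -0.57 to 0.56), with an adjusted p of 0.998 by edgeR's quasi-likelihood test. Its sign turned under several alternatives, and the value was -0.31 without sgJUN#1 replicate 1, 0.20 without NTC replicate 3 and 0.25 without sgJUN#1 replicate 2.

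KLF10 is also known as an early gene of the TGF-β response. It lies on GRCh37 chromosome 8, 103661012 to 103667953. Values in NTC were 73.2, 74.5 and 32.2 CPM and in sgJUN#1 they were 57.8 and 68.0 CPM. NTC replicate 3 was the low one of the 5 libraries, from 145 counts in the second largest library. The estimated log2 fold change was 0.076 (SE 0.339, 95% interval -0.69 to 0.84), with an adjusted p of 0.973 by edgeR's quasi-likelihood test. It was -0.23 without NTC replicate 3, -0.044 without sgJUN#1 replicate 2, 0.26 without NTC replicate 2, 0.25 without NTC replicate 1 and 0.19 without sgJUN#1 replicate 1. Thus the sign of the KLF10 difference rested on single libraries.

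In the whole KLF family, 13 of 17 genes were tested, of which 5 were higher and 8 lower on average, and the list had a median log2 fold change of -0.038. None passed the threshold with edgeR, DESeq2 or limma-voom, and none was counted at an unadjusted p under 0.05. The split was 6 and 7 under median-ratio scaling, and 9 higher and 4 lower without NTC replicate 3, where the median was 0.15. The most negative value was that of KLF9, a glucocorticoid-responsive gene, at -0.81 (SE 0.404). Its NTC libraries held 33.3, 16.3 and 31.5 CPM and its sgJUN#1 libraries 10.1 and 21.8 CPM. KLF17 stood at 0.60 (SE 0.288), with 48.1, 52.1 and 29.1 CPM in NTC and 52.8 and 77.6 CPM in sgJUN#1. KLF5, an epithelial family member, stood at -0.38 (SE 0.327), with its highest value of 193.0 CPM in NTC replicate 3. KLF7 was at 0.41 (SE 0.284), and KLF3, KLF8, KLF11, KLF12, KLF13 and KLF16 lay between -0.33 and 0.35. KLF1, KLF2, KLF14 and KLF15 had at most 9 counts in a library and were not tested.

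**Figure D2:**
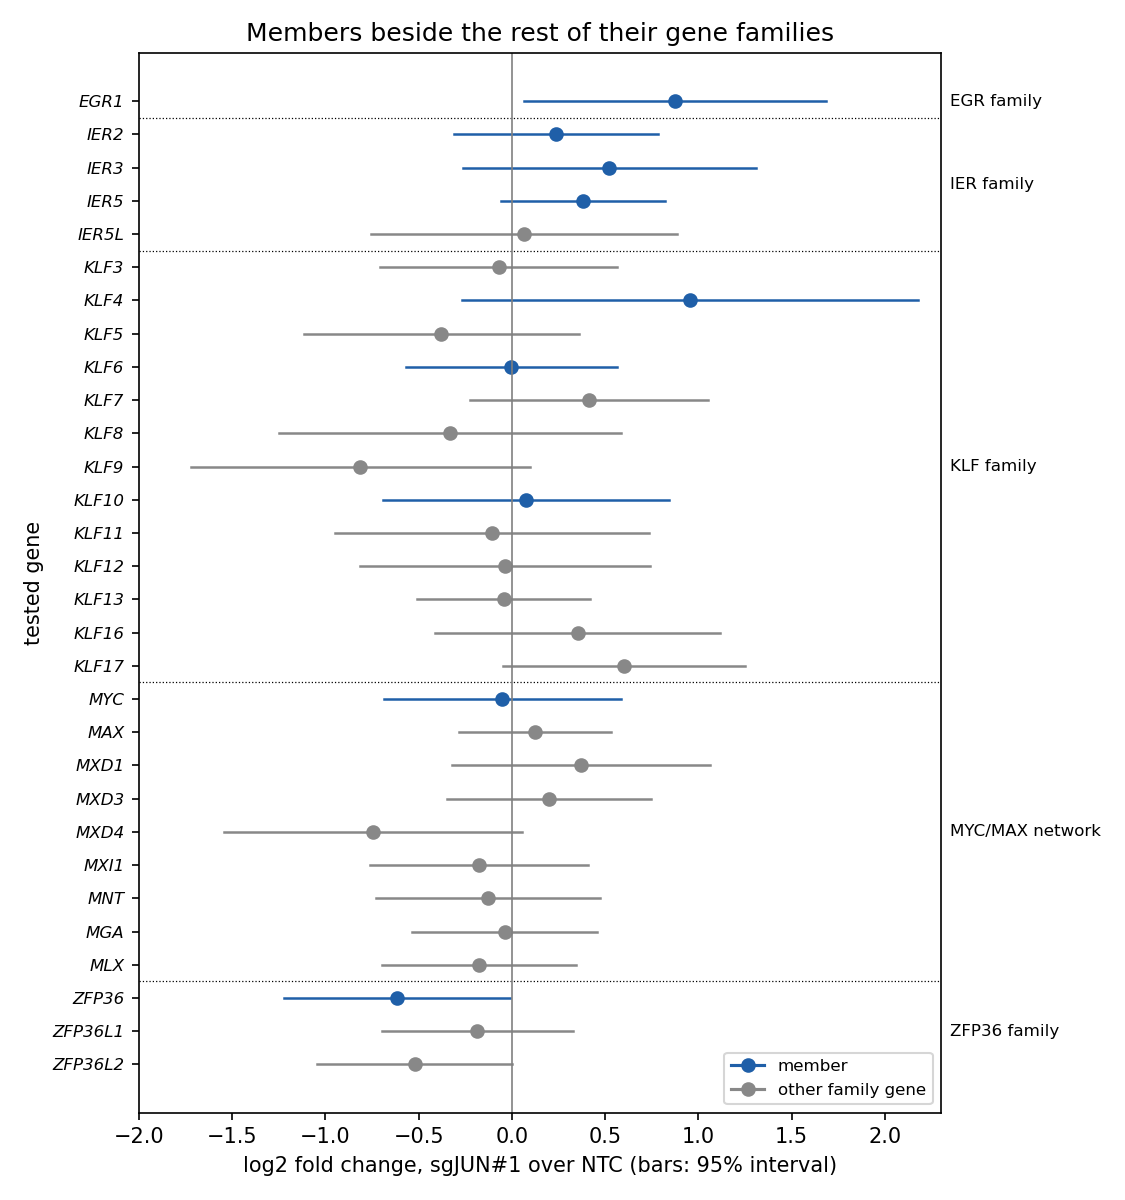
Points give the log2 fold change (sgJUN#1 over NTC, horizontal axis) of the tested immediate early genes (blue) and of the other tested genes of their families (grey), with 95% intervals from edgeR as bars and dotted lines between families. The 3 ZFP36 family genes lie below 0 and the 4 IER genes above it, while the KLF genes and the MYC and MAX network lie on both sides.

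MYC encodes a basic helix-loop-helix factor that dimerises with MAX and raises genes of ribosome biogenesis and growth. The locus is on GRCh37 chromosome 8, 128747680 to 128755197. The NTC libraries held 171.4, 96.9 and 132.4 CPM, from 623, 238 and 597 counts. The sgJUN#1 libraries held 157.7 and 99.8 CPM, from 764 and 279 counts. Both sgJUN#1 values lay within the NTC range. The means were 133.5 ± 37.3 CPM (SD, n = 3) and 128.8 ± 40.9 CPM (SD, n = 2). In the fit across all genes the log2 difference was -0.051 (SE 0.283, 95% interval -0.69 to 0.58), with an adjusted p of 0.978 by edgeR's quasi-likelihood test and an exact two-sided permutation p of 0.9. It was -0.42 without sgJUN#1 replicate 1, -0.23 without NTC replicate 2, 0.24 without sgJUN#1 replicate 2 and 0.17 without NTC replicate 1.

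Of the MYC and MAX network, 9 of 11 genes were tested, with 3 higher, 6 lower and none past the threshold with edgeR, DESeq2 or limma-voom. None was counted at an unadjusted p under 0.05. MAX, the obligate partner, was nearly level at 139.7, 131.9 and 130.4 CPM in NTC and 148.8 and 143.1 CPM in sgJUN#1, and its log2 fold change was 0.12 (SE 0.181). MXD4, which encodes a MAX partner that opposes MYC, had -0.74 (SE 0.356), and MXD1, another such partner, had 0.37 (SE 0.308). MXD3, MXI1, MNT, MGA and MLX lay between -0.18 and 0.20. MYCN and MYCL had at most 2 counts in a library.

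Among 16 genes known as MYC targets, 12 were higher and 4 (NCL, NPM1, FBL and CDK4) lower on average, and the list had a median log2 fold change of 0.13. None passed the threshold with edgeR, DESeq2 or limma-voom. The gene at an unadjusted p under 0.05 was ODC1, the first enzyme of polyamine synthesis, at 0.80 (SE 0.309, adjusted p = 0.521 by edgeR's quasi-likelihood test). The next largest absolute values were those of PPAN (0.45) and TFRC (0.35). The ODC1 level in NTC was 208.8, 146.5 and 94.5 CPM, and in sgJUN#1 it was 299.7 and 221.1 CPM. NTC replicate 3 was the lowest NTC library in 14 of these 16 genes, beside 35.3% of all tested genes. Without it, 7 were higher and 9 lower, and the median was -0.0074.

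NR4A1 encodes the orphan nuclear receptor Nur77, which cyclic AMP and calcium signals induce. It lies on GRCh37 chromosome 12, 52416616 to 52453291. It had 4, 1 and 4 counts in NTC and 6 and 4 counts in sgJUN#1, or 1.10, 0.407 and 0.887 CPM against 1.24 and 1.43 CPM. Each 95% counting interval overlapped every other, and the values lay near the limit set by 3 counts. It did not pass the filter on low counts. In the fit with no filter its log2 fold change was 0.62 (SE 0.80), with an adjusted p of 0.884 by edgeR's quasi-likelihood test. The exact two-sided permutation p over the 5 CPM values was 0.2. NR4A2, of the same receptor family, had 1, 2 and 1 counts in NTC and 6 and 12 counts in sgJUN#1, and it was also below the filter. NR4A3 had at most 5 counts.

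ZFP36 encodes tristetraprolin, which binds AU-rich elements in short-lived mRNAs and recruits the deadenylation machinery. Its locus is on GRCh37 chromosome 19, 39897487 to 39900052. In NTC it stood at 132.0, 76.1 and 116.0 CPM, from 480, 187 and 523 counts. The sgJUN#1 libraries held 60.1 and 81.6 CPM, from 291 and 228 counts. Both sgJUN#1 libraries were below NTC replicates 1 and 3, but NTC replicate 2 lay between them. The means were 108.0 ± 28.8 CPM (SD, n = 3) and 70.8 ± 15.2 CPM (SD, n = 2). The fitted log2 fold change was -0.62 (SE 0.270, 95% interval -1.22 to -0.013), with an unadjusted p of 0.0463 and an adjusted p of 0.588 by edgeR's quasi-likelihood test. The exact two-sided permutation p was 0.3. Leaving out single libraries gave values from -0.84 without sgJUN#1 replicate 2 to -0.41 without sgJUN#1 replicate 1.

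The paralogs of ZFP36 bind the same kind of element. ZFP36L2 held 179.6, 115.2 and 168.6 CPM in NTC and 108.2 and 107.3 CPM in sgJUN#1, so that the groups did not overlap. Of all tested genes, 12.8% were lower without overlap. NTC replicate 2 was again the low NTC library. The log2 fold change of ZFP36L2 was -0.52 (SE 0.232), with an unadjusted p of 0.0498 and an adjusted p of 0.596 by edgeR's quasi-likelihood test. ZFP36L1 stood at -0.18 (SE 0.229), and its NTC values of 339.4 to 542.1 CPM enclosed both sgJUN#1 values. All 3 family genes had negative log2 fold changes in every alternative fit that was run.

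Of 12 mRNAs with AU-rich elements known to be bound by tristetraprolin, 9 were tested. They include IER3. On average 8 were higher and 1, VEGFA (-0.017), lower in sgJUN#1, and 7 were higher without overlap, beside 12.2% of all tested genes. The median log2 fold change was 2.29. None passed the threshold with DESeq2, limma-voom or the edgeR fit with its filter on all 5 libraries. At an unadjusted p under 0.05, 6 were counted, beside 8.38% of all tested genes. With no filter edgeR called PTGS2. The largest values belonged to the cyclooxygenase gene PTGS2 (3.21, SE 0.757), the neutrophil chemokine gene CXCL3 (2.99, SE 0.786) and the cytokine gene IL1B (2.98, SE 0.941). IL1B held 14.9, 89.1 and 9.09 CPM in NTC and 192.6 and 379.6 CPM in sgJUN#1. The study describes IL1B as an AP-1 target that raised JUN induced, and a part of ZFP36 in these values was not tested. As for IER3, NTC replicate 2 was the highest NTC library in 7 of the other 8 genes, beside 29.3% of all tested genes. Without NTC replicate 2, CXCL2, CXCL3, CXCL8 and IL1B passed the threshold, and the median of the 9 was 3.36. TNF and IL6 had at most 3 counts in a library. The list was compiled with earlier results of these libraries known and is no independent support for a direction.

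The question which NTC library stood apart was answered gene by gene on log2 CPM. NTC replicate 2 was the highest NTC library for EGR1, IER2, IER3, IER5, KLF4 and KLF10, 6 of 9 tested genes, beside 29.3% of all tested genes. NTC replicate 3 was the lowest for the same 6 genes, beside 35.3%. NTC replicate 2 lay farthest from the other two NTC libraries in 5 genes, beside 25.1%, on the high side for EGR1, IER2 and IER3 and on the low side for MYC and ZFP36. NTC replicate 3 lay farthest in 4 genes, beside 41.7%, on the low side for IER5, KLF4 and KLF10 and on the high side for KLF6. NTC replicate 1 was never the farthest. No single NTC library stood apart for the whole group.

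Averaged over the 9 genes, log2 CPM minus the NTC mean was 0.076 in NTC replicate 1, 0.21 in NTC replicate 2 and -0.28 in NTC replicate 3. It was 0.37 in sgJUN#1 replicate 1 and 0.17 in sgJUN#1 replicate 2. The mean for sgJUN#1 replicate 2 was thus below that for NTC replicate 2. Over all tested genes the median deviation lay between -0.010 and 0.024 in every library. The range among NTC libraries had a median of 0.82 over the 9 genes and 0.56 over all tested genes. The gap between the sgJUN#1 libraries had a median of 0.53 over the 9 genes and 0.26 over all tested genes. The absolute difference between the groups was 0.39 and 0.22, respectively.

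**Figure D3:**
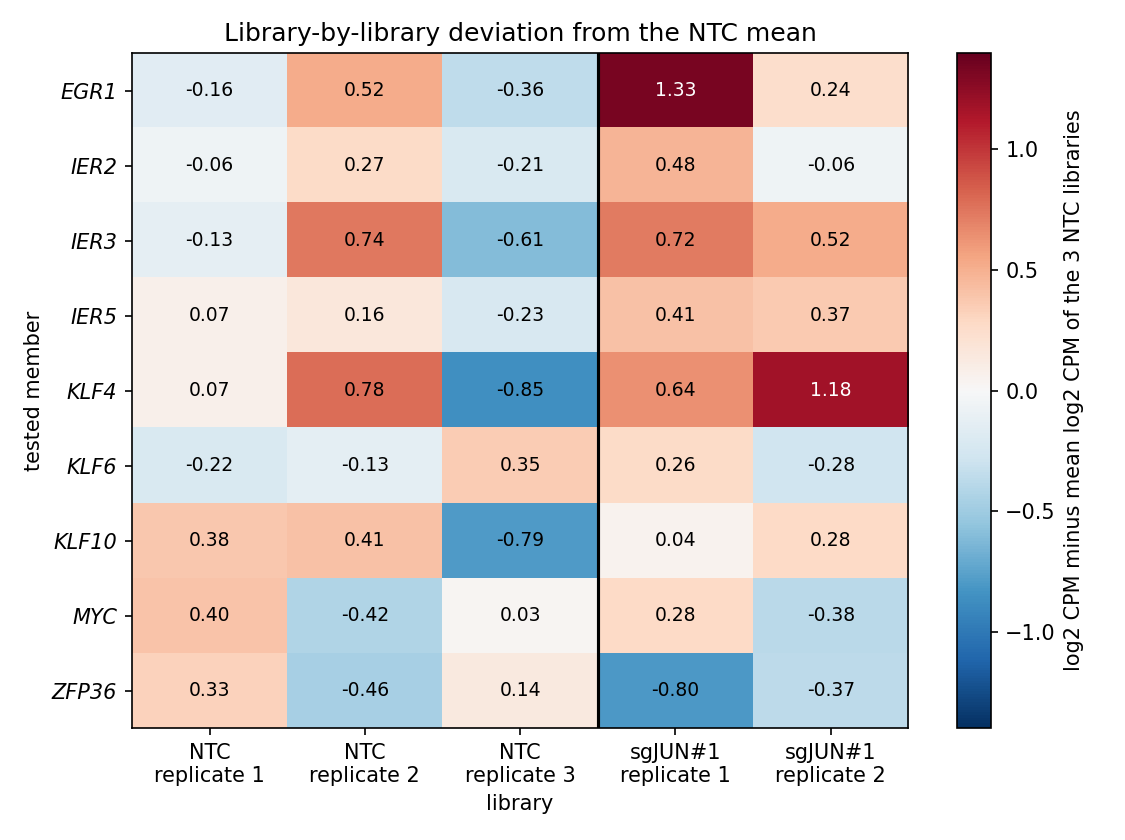
The heat map gives log2 CPM (prior count 2) minus the mean of the 3 NTC libraries for each tested gene (rows) in each library (columns), with the value printed in each cell and red for higher. NTC replicate 2 is highest among NTC for the upper 5 genes and KLF10, NTC replicate 3 is lowest for the same genes, and EGR1 in sgJUN#1 replicate 1 has the largest value, 1.33.

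NTC replicate 3 was not low for every early gene. FOS, the AP-1 partner of JUN, had 7, 6 and 63 counts in NTC and 25 and 3 counts in sgJUN#1, or 13.97 CPM in NTC replicate 3 beside 1.93 and 2.44 CPM in the other NTC libraries. FOSL2 was likewise highest there, at 137.1 CPM, beside 77.0 and 65.9 CPM in NTC and 42.1 and 51.9 CPM in sgJUN#1. NTC replicate 3 was the highest NTC library in 5 of 7 tested AP-1 genes, beside 39.6% of all tested genes. Among the 9 genes described here it was the highest for KLF6 alone. Of the 7 AP-1 genes, 2 (JUN and FOSL1) were higher and 5 lower on average, with a median of -0.32, and under median-ratio scaling 3 were higher and 4 lower. Without NTC replicate 3, 6 of them were tested, of which 3 were higher and 3 lower, and the median was 0.070.

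In a broader list of other early response genes the split was toward higher values. This list too was compiled with earlier results of these libraries known and is no independent support for a direction. Of 36 such genes 34 were tested, 23 higher and 11 lower on average in sgJUN#1, and the list had a median log2 fold change of 0.33. None passed the threshold with limma-voom or in the edgeR fit with its filter. At an unadjusted p under 0.05, 14 were counted, beside 8.38% of all tested genes. Without overlap between the groups, 9 were higher and 5 lower, beside 12.2% and 12.8% of all tested genes. DESeq2 called PHLDA1, and edgeR with no filter called PTGS2 and SGK1. NTC replicate 2 was the highest NTC library in 20 of these 34 genes, beside 29.3% of all tested genes. NTC replicate 3 was the lowest in 17, beside 35.3%. The largest values were those of PTGS2 (3.21), the small GTPase gene RHOB (1.53, SE 0.464) and the EGF receptor ligand gene HBEGF (1.46, SE 0.652). RHOB held 5.78, 10.2 and 2.66 CPM in NTC and 20.0 and 13.6 CPM in sgJUN#1. HBEGF had 12, 11 and 3 counts in NTC (3.30, 4.48 and 0.665 CPM). In sgJUN#1 it had 48 and 11 counts (9.91 and 3.94 CPM), so the groups overlapped. Without NTC replicate 3, 21 of the 34 were higher and the median was 0.17. Without sgJUN#1 replicate 2 the median was 0.10.

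The 7 upstream factors of early gene transcription that were measured did not pass the threshold with edgeR, DESeq2 or limma-voom either, and none was counted at an unadjusted p under 0.05. SRF held 111.4, 119.7 and 65.7 CPM in NTC and 118.3 and 141.3 CPM in sgJUN#1, with a log2 fold change of 0.40 (SE 0.267). Its NTC replicate 3 value was below that of every other library. The SRF coactivator gene MRTFA had -0.62 (SE 0.321), with its highest level of 82.3 CPM in NTC replicate 3. ELK3, a ternary complex factor gene, had 0.30 (SE 0.255). In this list 4 genes were higher and 3 (MRTFA, MRTFB and ELK4) lower.

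**Figure D4:**
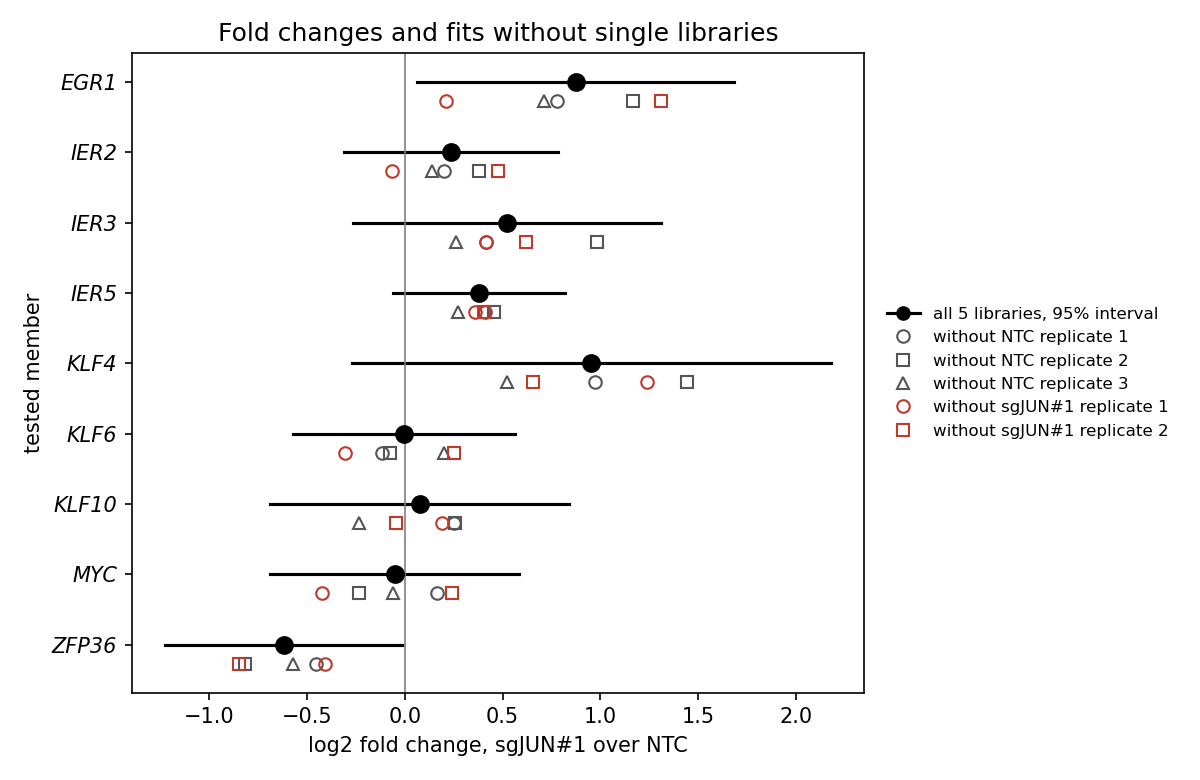
For each tested gene the filled point and bar give the log2 fold change (sgJUN#1 over NTC) and its 95% interval from edgeR on all 5 libraries, and the open symbols give the value after leaving out 1 library. EGR1 is at 0.21 without sgJUN#1 replicate 1, IER5 stays between 0.27 and 0.46, and KLF6, KLF10, MYC and IER2 have open symbols on both sides of 0.

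The members also differed from each other in profile. Each gene's log2 CPM was centred on its mean over the 5 libraries and compared with the mean profile of the 9 genes by Euclidean distance. IER5 (0.186) and IER2 (0.293) were closest to that mean, and the other members lay between 0.709 (KLF10) and 1.33 (ZFP36). Each of the 9 genes entered the mean itself, whereas non-members did not. Among non-members with a mean of at least 10 CPM, the smallest distances were those of EIF2B1 (0.063), ACBD5 (0.069), NCDN (0.080), PSMB10 (0.081) and WDR55 (0.083). These 5 were the nearest of all tested genes at that level over the same 5 libraries, and an averaged profile is closer to flat than that of a single gene.

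Annotated genes on the opposite strand overlap IER2, IER3, KLF4, MYC and NR4A1, and none of these had a row of its own by symbol in the count table. Whether strand was used in counting was not stated, so reads of such transcripts could not be separated from those of the 5 genes.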

How the data were processed

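The authors extracted RNA on columns, made QuantSeq 3′ mRNA-Seq FWD libraries, trimmed reads with cutadapt (4.2 in the submitters' processing notes), aligned them to hg19 with Bowtie2 (2.3.5.1) and counted them over genes in R. They deposited raw, unnormalised counts for each gene. The annotation, strand handling and use of molecular identifiers are not given in the sources used here, so intervals cover counting error only. PCR copies may count as separate reads. Every count column matched 1 sample. Symbols came from RefSeq names on GRCh38.p14 (99.36% of 23459 genes), and GRCh37 positions from GENCODE version 44.

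Counts were tested with edgeR 4.0.16 in R 4.3.3 (TMM, filterByExpr, robust quasi-likelihood F test, group alone), with Benjamini-Hochberg adjustment over 13616 genes and a threshold of 0.05. SE was computed as the log2 fold change over the root of F. CPM used TMM-scaled library sizes, and log2 CPM a prior count of 2. Counting intervals are exact Poisson at 95%. The exact permutation test permuted the CPM values over libraries, two-sided. Alternatives were median-ratio (RLE) scaling, library size alone, DESeq2 1.42.0, limma-voom 3.58.1, no filter, a replicate block, and each library left out. The scripts were tested on simulated data.

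Named were all 10 members, JUN, the EGR, IER, KLF, MYC and MAX, NR4A and ZFP36 families, the 3 genes with the largest absolute log2 fold change in each other list, and the 5 nearest profiles among genes of at least 10 CPM. Further genes were named after their values were seen: those counted or called under a setting, those on the smaller side of a split, KRT19, COL1A1, COL1A2, COL3A1, HSPA1A, CXCL8, TNF and IL6. The members and lists were chosen with earlier results of these data known. Groups and replicate numbers came from sample titles. All 5 libraries differed by more than counting noise (chi-square per degree of freedom from 7.62 to 18.4 within groups) and each counted as 1 replicate. Whether the same number in both groups marks a pair of libraries is not known. The labels do not say what a number shares, although the sample identifiers of the same number are adjacent. The correlation of replicate differences was 0.0146 over 13616 genes, and with 2 pairs it cannot decide the question.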

Additional observations from a re-analysis of the deposited data

How the results depend on the processing

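None of the immediate early genes was called under any alternative, and their median log2 fold change lay between 0.18 and 0.41. Adjusted p-values of the 9 tested genes over the alternatives ran from 0.235 to 1.0. Of 99 values recomputed for single genes, 88 kept their direction and side of the threshold and 11 turned direction. The number of genes called over the whole table was 28 on all 5 libraries, 136 with DESeq2, 148 without a filter and 10 to 57 when a library was left out. With the replicate block it was 103, and the block called none of the 9 genes but did call JUN (2.82) and EPCAM. Under it the KLF family split into 9 higher and 4 lower (median 0.15) and the AP-1 genes into 4 higher and 3 lower (median 0.15). With only 2 shared replicate numbers it was not taken as a pairing. NTC replicate 3 alone holds its number, so under the block it adds nothing to the difference between groups. KLF6 turned to 0.0067 with RLE size factors, 0.015 with DESeq2 and 0.18 with the replicate block, and ran from -0.31 to 0.25 when a library was left out. KLF10 turned to -0.24 with the replicate block, near its -0.23 without NTC replicate 3. It ran from -0.23 to 0.26 when a library was left out. MYC ran from -0.42 to 0.24 and IER2 from -0.065 to 0.48 when a library was left out. The cause was not tested, except that fits without a library hold fewer samples. Counts per gene list under these settings were added after the data were seen. Where 1 sgJUN#1 library was left out, the remaining one was assumed to vary like the NTC libraries. KLF4 and NR4A1 had at most 23 and 6 counts in a library.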

Other observations

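In the list of other early response genes, PHLDA1, PTGS2 and SGK1 passed the threshold under an alternative. They were chosen for that reason after their values were seen. PHLDA1, which encodes a pleckstrin homology-like domain protein induced by growth factors, held 69.9, 77.3 and 32.2 CPM in NTC replicates 1 to 3 and 121.8 and 161.7 CPM in sgJUN#1 replicates 1 and 2. Its log2 fold change was 1.25 (SE 0.339), with an adjusted p of 0.294 by edgeR's quasi-likelihood test, and DESeq2 called it. SGK1, a serum- and glucocorticoid-induced kinase gene, held 53.4, 65.5 and 51.9 CPM in NTC and 29.5 and 25.4 CPM in sgJUN#1. Its log2 fold change was -1.04 (SE 0.224), with an adjusted p of 0.157 by edgeR's quasi-likelihood test, and it was called when no filter on low counts was applied. PTGS2 was called in the same unfiltered fit, from 0, 3 and 2 counts in NTC and 19 and 16 counts in sgJUN#1. PHLDA1 and SGK1 had no overlap between the groups, in opposite directions. Of all tested genes, 12.2% were higher and 12.8% lower without overlap.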
